A study of Homo sapiens with 6 samples.

Results

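The genes described here encode the spindle assembly checkpoint proteins MAD1L1, MAD2L1, BUB1, BUB1B, BUB3 and TTK, the MAD2 silencers MAD2L1BP and TRIP13, and the ubiquitin ligase CHFR. They were chosen by name, with earlier results of these data known. All 9 were found by Ensembl identifier among the 58336 genes of the count table. A2780 cells, an established human ovarian cancer line, were exposed to the vehicle DMSO or to 6 µM TH588 for 48 h. TH588 is a first-generation inhibitor of MTH1, the enzyme that removes oxidized nucleotides from the nucleotide pool. It belongs to those MTH1 inhibitors that also arrest cells in mitosis. In the study, the stalling of A2780 cells in mitosis was transient and weaker than with paclitaxel. Each treatment has 3 biological replicates (A, B and C), so that 6 bulk RNA libraries of unmodified parental cells in the same insulin-containing medium were compared, and the libraries represent a single line.

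The spindle assembly checkpoint delays anaphase until every chromosome is attached to the spindle. The kinase TTK (MPS1) recruits BUB1, BUB3 and BUB1B (BUBR1) to unattached kinetochores, where MAD1L1 holds MAD2L1 (MAD2) and helps convert it to the closed form that binds CDC20. MAD2L1, BUB1B and BUB3 then hold CDC20 in the mitotic checkpoint complex, which keeps the anaphase-promoting complex inactive, and MAD2L1BP (p31comet) with the ATPase TRIP13 takes that complex apart. CHFR acts earlier, in prophase, where it delays entry into mitosis when microtubules are disturbed. In the study, A2780 clones with and without CHFR were compared for sensitivity to a related inhibitor, which makes the level of *CHFR* in the parental cells of interest.

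After TH588, transcripts of *BUB1B*, *BUB1*, *TTK*, *MAD2L1* and *TRIP13* fell to between 40.6% (*BUB1B*) and 45.6% (*TRIP13*) of their DMSO level. *BUB3* fell to 61.4%, and *MAD1L1* fell to 68.9% with groups that overlapped. *MAD2L1BP* did not pass the test, and *CHFR* was close to absent in every library. In edgeR's quasi-likelihood test with Benjamini-Hochberg adjustment over the 15844 genes tested, 7 of the 9 genes were lower and 0 were higher at an adjusted p under 0.05. The share of all tested genes called was 49.9%, with 25.5% lower and 24.4% higher. The count of genes called higher was also 0 at an unadjusted p under 0.05, and with DESeq2 and limma-voom. Of the 9 genes, 5 fell by more than 2-fold, against 4.74% of all tested genes. The median log2 fold change of the 9 genes was -1.13, beside 0.019 for all genes tested.

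Promoter sequence is shown for the 4 genes with a promoter entry that fell by more than 2-fold, because many genes of mitosis carry a short element near their start, the cell cycle genes homology region (CHR). The letters searched on both strands were TTTGAA with its variant form TTCGAA, the CCAAT box, and the E2F site as TTTGGCGC or TTTCGCGC or TTTCCCGC. RefSeq promoter windows (GRCh38.p14) were matched for 7 of the 9 genes. *BUB3* and *TTK* had no entry. The sequences run 5′ to 3′ from 220 bases before to 30 bases after the RefSeq start, and capitals mark the CHR forms and CCAAT on either strand.
BUB1B (chr15:40160849-40161098, plus strand): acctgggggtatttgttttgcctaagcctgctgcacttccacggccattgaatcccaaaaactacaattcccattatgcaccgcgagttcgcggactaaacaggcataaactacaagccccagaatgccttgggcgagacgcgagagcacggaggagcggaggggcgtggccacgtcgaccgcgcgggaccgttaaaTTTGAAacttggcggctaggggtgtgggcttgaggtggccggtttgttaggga
MAD2L1 (chr4:120066819-120067068, minus strand): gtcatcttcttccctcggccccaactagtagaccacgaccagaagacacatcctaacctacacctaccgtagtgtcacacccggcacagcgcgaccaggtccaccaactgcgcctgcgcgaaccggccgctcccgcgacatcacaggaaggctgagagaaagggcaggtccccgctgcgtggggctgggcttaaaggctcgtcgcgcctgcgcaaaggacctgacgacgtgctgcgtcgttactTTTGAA
BUB1 (chr2:110678034-110678283, minus strand): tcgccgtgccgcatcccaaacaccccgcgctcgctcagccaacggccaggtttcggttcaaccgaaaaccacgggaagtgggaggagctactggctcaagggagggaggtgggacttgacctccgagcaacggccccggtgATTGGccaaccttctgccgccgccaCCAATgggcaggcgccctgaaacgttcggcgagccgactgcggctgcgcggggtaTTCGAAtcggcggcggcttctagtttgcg
TRIP13 (chr5:892664-892913, plus strand): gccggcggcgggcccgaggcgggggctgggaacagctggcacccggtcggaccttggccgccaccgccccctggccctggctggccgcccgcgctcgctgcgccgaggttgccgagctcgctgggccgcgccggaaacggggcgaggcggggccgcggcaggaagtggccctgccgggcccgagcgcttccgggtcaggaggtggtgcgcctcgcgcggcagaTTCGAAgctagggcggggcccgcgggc
TTTGAA began 23 bases before the start in *BUB1B* and at base 25 of the transcript in *MAD2L1*. TTCGAA began at base 2 of the transcript in *BUB1* and at base 4 in *TRIP13*. *BUB1* also held CCAAT on the 2 strands, 79 and 54 bases before its start, and *MAD2L1* held it on the opposite strand 229 bases before its start, outside the printed stretch. Of 35116 promoter windows of 300 bases (250 before and 50 after each start), 15.2% held TTTGAA, 1.45% held TTCGAA, 34.6% held CCAAT and 2.74% held an E2F form. None of the E2F forms searched was found in any window of the 7 genes. Other forms of the E2F site were not searched, so their absence is not shown. In the full windows none of the letters were found for *MAD1L1*, while the window of the second listed start of *MAD2L1BP*, which did not fall, held TTTGAA on the opposite strand 117 bases before that start. *CHFR*, which did not fall either, held CCAAT 56 and 246 bases before its first listed start, and the same letters lay 43 and 233 bases before its second. A match is a description of letters only.

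*BUB1B* (ENSG00000156970, chr15:40161023-40221136 on GRCh38, plus strand) encodes the pseudokinase BUBR1, which binds CDC20 within the checkpoint complex. Its normalized level was 274, 285 and 298 CPM (counts scaled to the TMM-normalized library size) for vehicle replicates A, B and C, followed by 101, 125 and 121 CPM in the TH588 libraries in that order. The groups did not overlap, and TH588 replicate A was the lowest library. Its mean fell from 286 ± 12 with vehicle to 116 ± 13 CPM after treatment (SD, n = 3 each), which gave a log2 fold change of -1.30 with a standard error of 0.09 (adjusted p = 5.53e-08 from edgeR's test). This was the strongest fall among the 9 genes, and 2.42% of all tested genes had a log2 fold change as low. The readthrough gene *BUB1B-PAK6* shares 10.2% of the exon bases of *BUB1B* on the same strand and had 0 counts in every library.

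*BUB1* (ENSG00000169679, chr2:110637698-110678114, minus strand) encodes the kinase that scaffolds BUBR1 at kinetochores. Its level was 202, 199 and 215 CPM with DMSO and 90.7, 97.7 and 87.0 CPM with TH588. The 3 treated libraries lay close together, far below the controls. This gave a log2 fold change of -1.16 with a standard error of 0.08 (adjusted p = 4.79e-08 from edgeR's test).

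*TTK* (ENSG00000112742, chr6:80003887-80042527, plus strand) encodes MPS1, the kinase at the top of the pathway. It gave 57.7, 63.2 and 63.8 CPM with DMSO and 25.3, 27.1 and 29.0 CPM with TH588. Again the groups were separate. Its change on the log2 scale was -1.18 with a standard error of 0.09 (adjusted p = 1e-07 from edgeR's test).

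*BUB3* (ENSG00000154473, chr10:123154277-123170467, plus strand) encodes the WD-repeat adaptor that carries BUB1 and BUBR1 to kinetochores. Its level was 98.4, 103 and 113 CPM with DMSO and 69.0, 61.5 and 63.0 CPM with TH588. All treated libraries were below all controls, by a smaller margin than for *BUB1B*, *BUB1* and *TTK*. Its log2 fold change was -0.70 with a standard error of 0.09 (adjusted p = 9.82e-06 from edgeR's test).

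*MAD2L1* (ENSG00000164109, chr4:120055608-120067074, minus strand) encodes MAD2, the protein that closes around CDC20. It gave 47.8, 51.1 and 54.2 CPM with DMSO and 22.3, 21.1 and 20.9 CPM with TH588. The treated values were nearly the same in all 3 libraries. On the log2 scale it changed by -1.25 with a standard error of 0.09 (adjusted p = 5.59e-08 from edgeR's test). Its pseudogene copy *MAD2L1P1* had 0.541 ± 0.0394 CPM in controls and 0.535 ± 0.172 CPM in treated cells (SD, n = 3 each).

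*MAD1L1* (ENSG00000002822, chr7:1815793-2233243, minus strand) encodes the coiled-coil platform for MAD2 and has the longest span of these genes, at 417 kb. Its level was 42.5, 29.1 and 31.7 CPM with DMSO and 21.2, 30.2 and 19.4 CPM with TH588. TH588 replicate B lay above DMSO replicate B, so the groups overlapped. Here the log2 fold change was -0.54 with a standard error of 0.19 (95% interval -0.97 to -0.11), which passed the threshold narrowly (adjusted p = 0.0418 from edgeR's test). The call was lost when DMSO replicate A (log2 fold change -0.34), DMSO replicate C (-0.58), TH588 replicate A (-0.46) or TH588 replicate C (-0.39) was left out, and with scaling by library size only (-0.43). Without TH588 replicate B it was -0.77.

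Of the MAD2 silencers, the ATPase passed the test and its adaptor did not. *TRIP13* (ENSG00000071539, chr5:892643-919357, plus strand), the ATPase that opens MAD2, gave 95.2, 99.1 and 102 CPM with DMSO and 43.5, 46.0 and 45.4 CPM with TH588. The groups were separate and each was tight. Its log2 fold change was -1.13 with a standard error of 0.08 (adjusted p = 4.98e-08 from edgeR's test). Exons of *BRD9*, on the opposite strand, overlap 5.11% of its exon bases, and *BRD9* itself did not pass the test (log2 fold change -0.16, adjusted p = 0.188 from edgeR's test).

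*MAD2L1BP* (ENSG00000124688, chr6:43629540-43640952, plus strand) encodes p31comet, the adaptor that presents MAD2 to TRIP13. Its level was 6.28, 7.36 and 6.97 CPM with DMSO and 8.03, 6.78 and 8.16 CPM with TH588. The ranges overlapped. The log2 fold change was 0.15 with a standard error of 0.13 and a 95% interval from -0.12 to 0.43 (adjusted p = 0.349 from edgeR's test), which does not reach the falls of *TRIP13* or *MAD2L1*. It lay between 0.11 and 0.26 in the 15 alternative fits and passed the threshold in none of them.

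**Figure D1:**
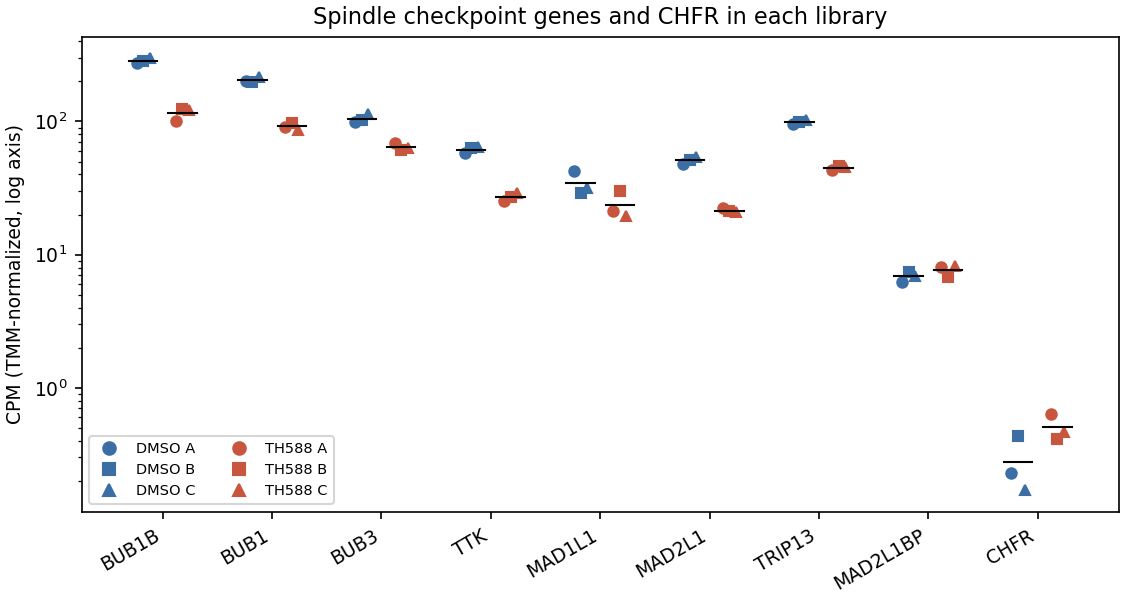
Normalized level (CPM, log axis) of the 8 checkpoint genes and *CHFR* in each of the 6 libraries, with DMSO in blue, TH588 in red, the replicate letter as the marker shape and the group mean as a black line. *BUB1B*, *BUB1*, *BUB3*, *TTK*, *MAD2L1* and *TRIP13* are lower in all 3 treated libraries, *MAD1L1* and *MAD2L1BP* overlap, and *CHFR* lies below 1 CPM in every library.

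In 6 of the 9 genes every treated library was below every control, against 29% of all tested genes. The 9 genes summed to 825 to 885 CPM in the DMSO libraries and to 382 to 416 CPM in the TH588 libraries, a ratio of 0.468. Per kilobase of merged exon, the order of levels with DMSO was *BUB1B* (63.8 ± 2.69 CPM per kb), *BUB1* (34.0 ± 1.35), *TRIP13* (27.8 ± 0.983), *TTK* (13.4 ± 0.738), *BUB3* (12.6 ± 0.899), *MAD2L1* (8.88 ± 0.558), *MAD1L1* (4.76 ± 0.983), *MAD2L1BP* (3.65 ± 0.290) and *CHFR* (0.0163 ± 0.00812; SD, n = 3 for each level). On this length *TTK* and *BUB3* did not differ beyond their spread, and *MAD1L1* and *MAD2L1BP* differed by about 1 SD of *MAD1L1*. With TH588, also per kilobase of merged exon, the lower end had *MAD2L1BP* at 4.07 ± 0.404, *MAD2L1* at 3.73 ± 0.133 and *MAD1L1* at 3.27 ± 0.803 CPM per kb (SD, n = 3 each), which did not differ beyond their spread. The middle and lower order depends on the length used, since the merged exon length in the table is longer than the main transcript (7230 bases against 2695 for *MAD1L1*). Per kilobase of canonical transcript, an alternative added after seeing the data, *BUB1B*, *BUB1* and *TRIP13* stayed the highest in that order and *CHFR* the lowest with either treatment. With DMSO, *TTK* (20.8 ± 1.14 CPM per kb) then lay beyond the spread above *BUB3* (13.6 ± 0.968), and *MAD1L1* (12.8 ± 2.64) lay above *MAD2L1* (9.76 ± 0.614; SD, n = 3 for each level). With TH588 on the canonical length, *MAD1L1* was at 8.77 ± 2.15, *MAD2L1BP* at 6.04 ± 0.599 and *MAD2L1* at 4.11 ± 0.147 CPM per kb (SD, n = 3 each), the reverse order of *MAD1L1* and *MAD2L1*.

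**Figure D2:**
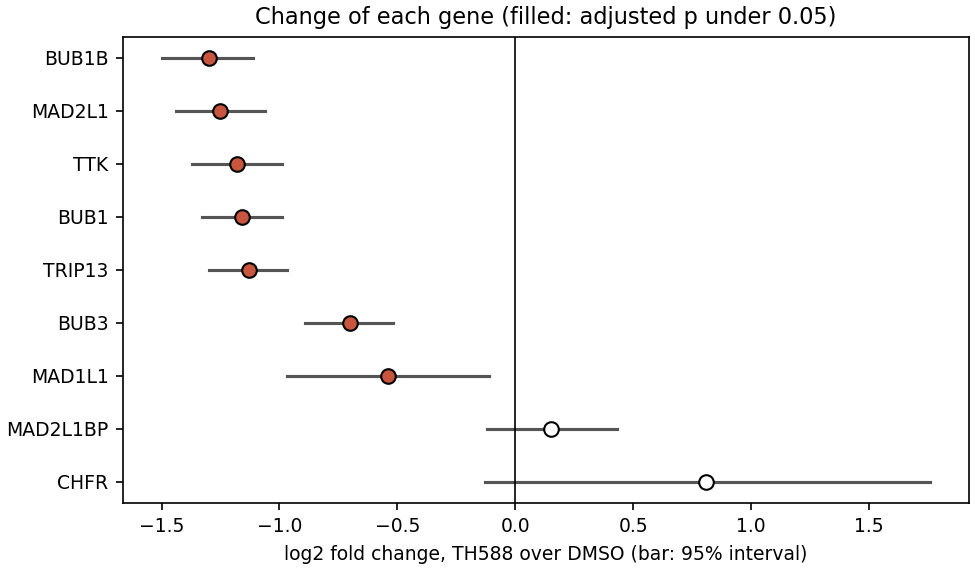
Log2 fold change of each gene, TH588 over DMSO, with its 95% interval from edgeR's quasi-likelihood fit. Filled points passed an adjusted p under 0.05. The intervals of *BUB1B*, *MAD2L1*, *TTK*, *BUB1* and *TRIP13* overlap one another between -1.5 and -0.97, that of *BUB3* lies higher, and those of *MAD2L1BP* and *CHFR* include 0.

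The ratio of a pair of transcripts within a library does not depend on how libraries are scaled. Ratios were formed for 11 pairs and compared by an exact two-sided permutation test over the 6 libraries, which cannot give less than p = 0.1 with 3 against 3. The log2 ratio of *MAD2L1* to its silencer *MAD2L1BP* was 2.93, 2.80 and 2.96 with DMSO and 1.47, 1.64 and 1.36 with TH588. The mean with TH588 minus that with DMSO was -1.4, without overlap (exact permutation p = 0.1, adjusted over the 11 ratios 0.11). *TRIP13* to *MAD2L1BP* was 3.85 ± 0.09 with DMSO and 2.56 ± 0.18 with TH588 (SD, n = 3 each), a difference of -1.29 without overlap (exact permutation p = 0.1). *MAD2L1* to *MAD1L1* ranged from 0.17 to 0.81 with DMSO and from -0.52 to 0.11 with TH588, with DMSO replicate A close to the treated libraries.

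Within the BUB proteins, the difference in log2 ratio was -0.46 for *BUB1* to *BUB3* and -0.61 for *BUB1B* to *BUB3*, both without overlap (exact permutation p = 0.1 each). For *TTK* to *BUB3* it was -0.48, also without overlap (exact permutation p = 0.1). *BUB1* to *BUB1B* was -0.48 ± 0.04 with DMSO and -0.33 ± 0.16 with TH588 (SD, n = 3 each), with groups that overlapped (exact permutation p = 0.2). Against *CDC20*, the target of the checkpoint, the differences were smaller, at -0.22 for *MAD2L1* to *CDC20* and -0.28 for *BUB1B* to *CDC20*, each without overlap (exact permutation p = 0.1 each). Since this design cannot pass the threshold, these ratios are given as values. How often the ratios of other gene pairs differ without overlap was not tested.

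**Figure D3:**
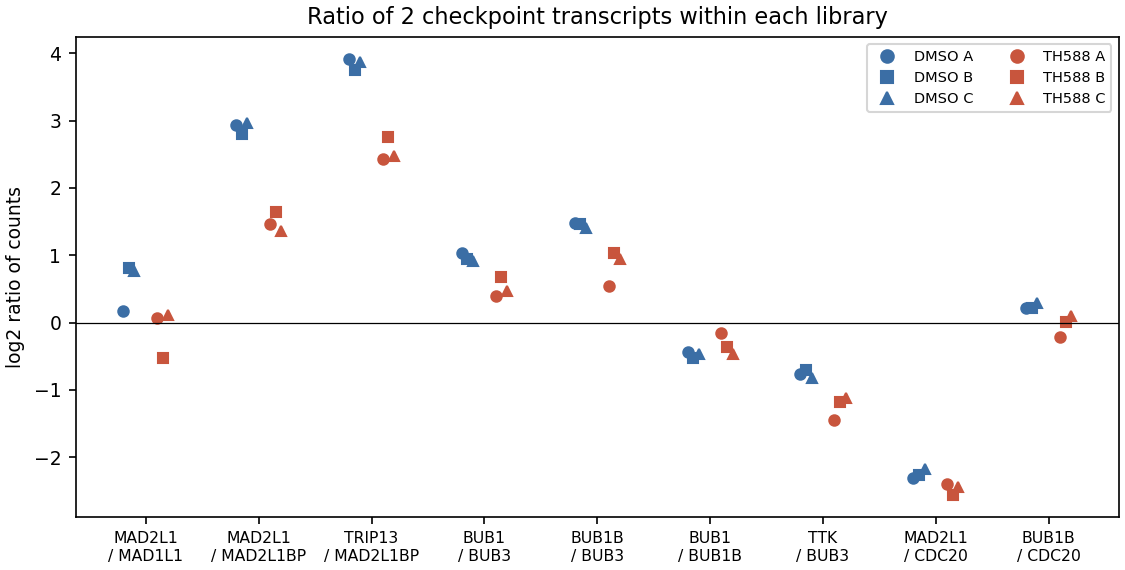
Log2 ratio of the counts of a pair of transcripts in each library (DMSO blue, TH588 red, marker shape by replicate letter). The ratios to *MAD2L1BP* and to *BUB3* are lower in all 3 treated libraries, *BUB1* to *BUB1B* overlaps, and the ratios to *CDC20* differ by -0.22 and -0.28.

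*CHFR* (ENSG00000072609, chr12:132822187-132956304, minus strand) received 19, 36 and 16 counts in the DMSO libraries and 17, 45 and 39 counts in the TH588 libraries. These correspond to 0.231, 0.436 and 0.171 CPM with DMSO and to 0.635, 0.414 and 0.467 CPM with TH588. DMSO replicate B lay within the treated range. The log2 fold change was 0.81 with a standard error of 0.44 and a 95% interval from -0.13 to 1.76, which did not pass the threshold (adjusted p = 0.142 from edgeR's test). It did pass when DMSO replicate B was left out (log2 fold change 1.28, adjusted p = 0.0404 from edgeR's test), and its range over the fits without a single library was 0.56 to 1.28. *RNF8*, a ligase with the same pairing of an FHA and a RING domain, had 30.1 to 33.5 CPM with DMSO and 27.0 to 30.2 CPM with TH588.

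Per kilobase of exon, *CHFR* ranked at the 1.09th percentile of the tested genes. As a gauge of signal from genes that the tissue does not use, 404 olfactory receptor genes were pooled, of which 291 had 0 counts in all 6 libraries. Their pooled level was 0.0102 to 0.0121 CPM per kb with DMSO and 0.0157 to 0.0203 CPM per kb with TH588, a ratio of 1.56, and *CHFR* lay at 0.98 to 2.11 times this level within the same library. With the canonical transcript lengths in place of merged exons, an alternative chosen after seeing the data, *CHFR* lay at 1.41 to 3.04 times it. Of the 404 genes taken singly, 38 had a mean level per kilobase of merged exon at or above that of *CHFR*. The part of the pooled background, which was higher with TH588, in the *CHFR* difference was not tested. At its 5′ end the gene model of the table runs 68.7 kb past both RefSeq starts of *CHFR* and shares 239 exon bases with *ZNF605*, and it shares 125 with *GOLGA3*, both on the same strand and both more abundant than *CHFR*.

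**Figure D4:**
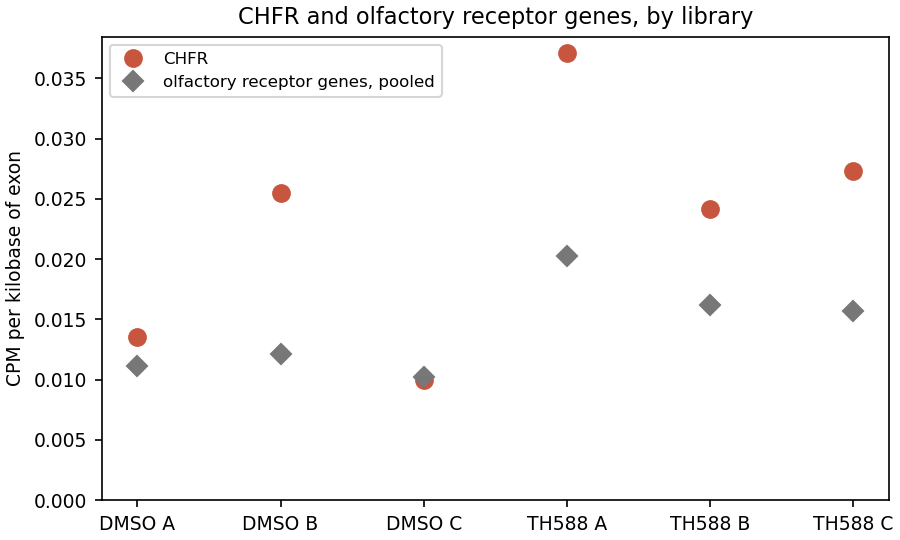
Level of *CHFR* (red circles) and of 404 pooled olfactory receptor genes (grey diamonds) in CPM per kilobase of exon, by library. Both lie under 0.04 CPM per kb, *CHFR* is at 0.98 to 2.11 times the pooled genes, and both were higher in the treated libraries on average.

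The *CHFR* promoter is shown because loss of this transcript in tumour lines is known to go with methylation of its CpG-rich promoter. The window runs from 220 bases before to 30 bases after the RefSeq start (GRCh38.p14), and capitals mark CG.
CHFR (chr12:132887576-132887825, minus strand): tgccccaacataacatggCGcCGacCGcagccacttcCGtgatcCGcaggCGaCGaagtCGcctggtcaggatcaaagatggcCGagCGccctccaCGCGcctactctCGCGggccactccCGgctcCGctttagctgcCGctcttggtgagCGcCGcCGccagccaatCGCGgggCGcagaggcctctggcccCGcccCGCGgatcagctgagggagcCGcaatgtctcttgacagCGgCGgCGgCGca
The window holds 31 CG, and the full window of 300 bases holds 37, which is the 90.1th percentile of all promoter windows (median 14). This was not particular to *CHFR*, as the full windows of *MAD1L1* and *TRIP13* held more, at 42 and 41 CG. Those of *BUB1* (31), *MAD2L1* (26), *MAD2L1BP* (26 and 20) and *BUB1B* (25) held fewer, and that of the second *CHFR* start held 34. These data hold no measure of methylation.

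The genes that work with the checkpoint were followed in a list of 30 kinetochore receptors, RZZ complex members, phosphatases and relatives, of which 29 could be tested. Of these, 23 were lower and 2 were higher, against 25.5% lower and 24.4% higher among all tested genes. The list median on the log2 scale was -0.90. The strongest falls were those of *ZWINT* (-1.65), *KNL1* (-1.53), *SPC25* (-1.52) and *CENPE* (-1.30). KNL1 is the scaffold that TTK phosphorylates to dock BUB3, ZWINT binds it, SPC25 belongs to the NDC80 complex, and CENPE is a kinetochore motor. *KNL1* gave 105, 109 and 115 CPM with DMSO and 31.6, 39.8 and 41.9 CPM with TH588. *CDC20* fell from 237, 245 and 245 CPM to 118, 124 and 114 CPM, which gave a log2 fold change of -1.03 with a standard error of 0.08 (adjusted p = 8.52e-08 in edgeR's fit).

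The rises in that list were those of *PPP2R5C* (0.29, adjusted p = 0.0148 from edgeR's test) and *PPP2R5D* (0.23, adjusted p = 0.0239 from edgeR's test). Both encode B56 subunits of the phosphatase PP2A, the family that BUBR1 recruits to kinetochores. The B56 family did not move one way, as *PPP2R5A*, its other member on the list, named after its value was seen, fell from 47.7 ± 1.77 to 33.9 ± 5.97 CPM without overlap (SD, n = 3 each; log2 fold change -0.49, adjusted p = 0.00231 from edgeR's test). *PPP2R5C* gave 59.1 to 68.5 CPM with DMSO and 71.5 to 83.3 CPM with TH588, and *PPP2R5D* gave 99.8 to 104 CPM and 113 to 125 CPM. The groups did not overlap for either gene, but the same held in the upward direction for 28.7% of all tested genes. The number of rises was 0 without DMSO replicate A or DMSO replicate C. It was 1 without DMSO replicate B, TH588 replicate B or TH588 replicate C. The 4 genes that did not pass, named after their values were seen, were *PMF1*, *ZNF207*, *PPP1CA* and *MAD2L2*, the last of which encodes another MAD2-like protein.

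Among 13 genes linked to CHFR (substrates, partners and ubiquitin-conjugating enzymes), 8 were lower and 0 were higher, with a median of -0.52. Of all tested genes, 25.5% were lower and 24.4% higher. The count of rises was also 0 at an unadjusted p under 0.05, with DESeq2 and with limma-voom. *AURKA* (-1.11), *PLK1* (-1.02), *PARP1* (-1.0) and *KIF22* (-0.77) fell most. The kinases AURKA and PLK1, which drive entry into mitosis and which CHFR can ubiquitinate, gave 268 to 284 and 137 to 140 CPM with DMSO and 121 to 138 and 65.5 to 72.1 CPM with TH588. *CHFR* itself was at 0.98 to 2.11 times the pooled olfactory receptor level, or 1.41 to 3.04 times it on canonical transcript lengths. Its ratios to these transcripts differed by 2.05 for *AURKA* and 1.96 for *PLK1* on the log2 scale (exact permutation p = 0.1 each). They rest on 16 to 45 *CHFR* counts a library.

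Markers of cycling cells were also lower, to differing degrees. All 12 markers on the list were lower, against 25.5% of all tested genes. Their median change was -1.25 on the log2 scale, with the strongest falls in *CDK1* (-1.86), *MKI67* (-1.59), *CCNA2* (-1.58) and *PRC1* (-1.51). The smallest falls, named after their values were seen, were those of *CDC25C* (-0.43), *CCNB2* (-0.51) and *CCNB1* (-0.62). The summed level of the 12 markers was 3570 to 3770 CPM with DMSO and 1220 to 1590 CPM with TH588, a ratio of 0.384. Their part in the fall of the checkpoint genes was not tested, and in bulk RNA fewer cycling cells and less RNA per cycling cell cannot be told apart.

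**Figure D5:**
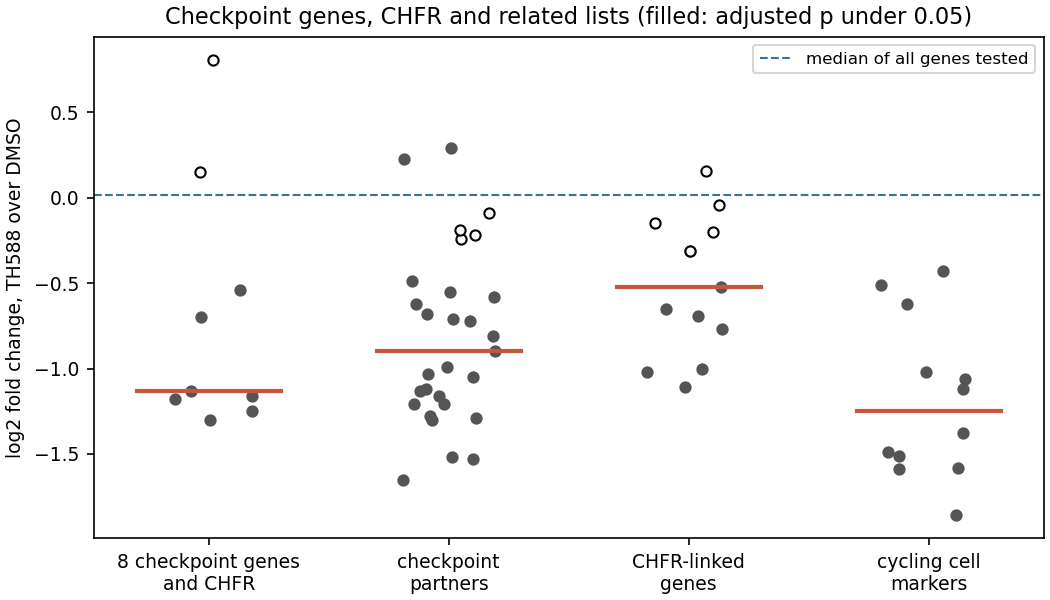
Log2 fold change, TH588 over DMSO, of every tested gene in the 9 genes described here and in 3 related lists. Filled points passed an adjusted p under 0.05, red lines are list medians (-1.13, -0.90, -0.52 and -1.25), and the dashed line is the median of all genes tested (0.019).

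For each gene, the other gene with the most similar pattern over the 6 libraries was found among the genes whose log2 CPM averaged at least 2, as the smallest root mean square difference of log2 CPM after centring each gene. *BUB1B* was closest to *NEIL3* (0.029), *BUB1* to *SLC2A1* (0.032), *TTK* to *EXOSC8* (0.034), *BUB3* to *AK6* (0.021), *MAD2L1* to *MELK* (0.046), *TRIP13* to *URB2* (0.032) and *MAD2L1BP* to *BRMS1L* (0.017). *MAD1L1* was closest to *GOLGA3* (0.066), which shared its high values in DMSO replicate A and TH588 replicate B, at 80.5 and 62.7 CPM against 59.2 to 63.5 CPM in the other DMSO and 42.9 CPM in each of the other TH588 libraries. The closest gene to *CHFR* was *ASPHD1* (0.22). *CHFR* had 16 to 45 counts a library and lay below the level asked of the other genes. Its counting error limits how close any match could be. With 6 libraries such likeness describes mainly the treatment difference.

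Total counts were 28537837 to 99074175 a library, TH588 replicate A being the shallowest, and the small nucleolar RNA *SNORD3A* took 7.68% to 21.9% of counts, most in that library. At its depth a count of 0 allows up to 0.112 CPM (3 counts), against 0.0276 to 0.0365 CPM elsewhere. Of the ovarian and epithelial markers, *KRT8*, *KRT19*, *CDH1*, *MUC16*, *PAX8* and *WT1* were at or near 0. *VIM*, on the same list but not specific to epithelial cells, was abundant at 3330 to 4050 CPM. *EPCAM* rose from 0.644 ± 0.212 to 4.74 ± 0.35 CPM (log2 fold change 2.87, adjusted p = 1.38e-07) and *KRT18* from 3.56 ± 0.373 to 6.54 ± 0.435 CPM (0.88, adjusted p = 0.000103; SD, n = 3 each, edgeR's test). Among 8 markers of other cell types, *PTPRC*, *CD3E*, *CD68*, *PECAM1* and *VWF*, of blood and endothelial cells, were at or near 0. The stromal *ACTA2* rose from 1.85 ± 0.464 to 7.45 ± 1.25 CPM (log2 fold change 2.0, adjusted p = 1.19e-06) and *PDGFRB* from 2.25 ± 0.276 to 3.46 ± 0.744 CPM (0.61, adjusted p = 0.0165; SD, n = 3 each, edgeR's test), while *COL1A1* was at 3.97 ± 0.79 and 3.84 ± 1.19 CPM and did not pass. The part of these low-level rises in the results above was not tested. The summed level of the 8 was 7.5 to 8.85 CPM with DMSO and 13.5 to 15.9 CPM with TH588. As the smallest exact p for a single gene is 0.1, calls on single genes come from the fit over all genes.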

How the data were processed

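RNA of A2780 cells exposed to DMSO or TH588 (6 µM, 48 h) was column-purified with DNase digestion in 3 biological replicates each, and sequenced after Illumina TruSeq RNA v2 library preparation. Per the labels and methods, the authors aligned reads to GRCh38 with TopHat and counted them per gene with featureCounts 1.4.6. The deposited values are raw counts, and the handling of strand, multi-mapping and overlapping exons is not given in the sources used here. Reads of overlapping genes or copies can therefore be misassigned. Gene models are called UCSC in the methods, but the 58336 genes carry Ensembl identifiers. Of these, 57754 were matched to a symbol, and coordinates are those of the table.

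Counts were compared with edgeR 4.0.16 in R 4.3.3 (TMM, default low-count filter, robust quasi-likelihood test, adjusted p under 0.05 by Benjamini-Hochberg over all genes tested, no covariate). Each standard error is the log2 change over the root of its F statistic. Level ratios used a prior count of 0.5. The genes named are the 9 themselves, up to 4 rises and 4 falls of each related list, and *CDC20*, *PLK1* and *AURKA*. The genes and lists were chosen with earlier results of these data known. DESeq2 1.42.0, limma-voom (limma 3.58.1), other scalings and filters, left-out libraries and a replicate block were alternatives. In simulated counts for TH588 against DMSO (15170 genes tested, absolute log2 fold change 1), 119 of the 122 changed genes whose log2 CPM averaged at least 2 were recovered, 71.4% of all 189 changed genes were called, and 8.16% of calls were false. The simulation used the fitted model and changed far fewer genes than the 49.9% of tested genes called in the real counts. These rates therefore need not hold for the real counts. Replicates differed by more than sampling noise (chi-square per degree of freedom 25.2 to 180 in the 6 pairs). Floors of 3 counts cover counting error only.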

Additional observations from a re-analysis of the deposited data

How the results depend on the processing

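*BUB1B*, *BUB1*, *TTK*, *BUB3*, *MAD2L1* and *TRIP13* stayed lower and past the threshold in all 15 alternative fits, and none of the 9 genes changed direction. *MAD1L1* did not pass with scaling by library size only (-0.43) or at an adjusted p under 0.01 (-0.54), and ranged from -0.77 to -0.34 without a single library. Its adjusted p lay between 1.2e-05 and 0.197 over the alternatives. *CHFR* ranged from 0.56 to 1.28 without a single library, and from 0 to 1 of the 9 genes were then higher, the 1 being *CHFR* without DMSO replicate B. With library size only, the median of all genes moved to 0.126 from 0.019, 60.4% of called genes were higher against 48.8%, and 1 gene linked to CHFR was higher. The same list had 0 to 1 rises without a single library. Rises among checkpoint partners numbered 0 to 2 without a single library, 1 with the replicate block and 0 at an adjusted p under 0.01. The cause of these shifts was not tested. The fits without a library also had fewer samples. All changes of ratios kept their direction with a prior count of 2 and without a single library. No pairing by replicate letter was seen: the deviation from the group mean correlated between libraries of 1 letter at -0.071, -0.083 and 0.00082. The replicate block gave 7327 called genes against 7908, of which 7254 were shared. Depth limits *CHFR* most, at 16 to 45 counts a library.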
